A study of Mus musculus with 9 samples.

Results

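The genes described here act in the repair of DNA breaks and in the checkpoints that halt cells with damaged DNA. They were chosen by symbol, 43 genes in 7 roles, and all 43 were found among the 31685 genes of the table. The samples were jejunum of adult male wild-type C57BL/6J mice, 3 mice in each of 3 groups, all labelled as 1 batch. Control mice were untreated. TAI mice received 12 Gy of X-rays to the abdomen with the rest of the body shielded, followed by PBS. TAI/IVIg mice received the same dose and then, within an hour, 500 mg/kg of intravenous immunoglobulin (IVIg), a preparation of human IgG that was injected into the vein and repeated every 3 days. The jejunum was taken on day 3 after irradiation, so each group gives 1 time point, and no unirradiated group received IVIg.

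Cells close broken chromosomes by several routes. Homologous recombination resects the broken ends and copies the intact sister chromatid, so it is largely confined to cells that have replicated their DNA, and many of its genes are transcribed around S phase under E2F transcription factors. Classical end joining holds the ends with the Ku proteins and ligates them in any phase of the cell cycle, and an alternative route anneals short matching stretches with the polymerase encoded by Polq. Fanconi anaemia proteins repair crosslinked strands and protect stalled forks, and the kinases encoded by Atm and Atr start the checkpoint through Chek2 and Chek1. In the jejunum the dividing cells lie in the crypts, while the enterocytes of the villus have left the cell cycle.

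Promoter sequence was examined because genes of this kind often share E2F elements. RefSeq windows of GRCm38.p6, from 250 bases before to 50 bases after the start of the gene, were at hand for 32 of the 43 genes. The E2F core was searched on either strand as TTCCCGC, and likewise as TTGGCGC, also as TTGCCGC and further as TTCGCGC. It was found in 18 of the 32 windows (56.2%), against 9.69% of 27025 windows of all genes and 12.2% of 17492 windows of protein-coding genes. The share was 5 of 9 recombination genes, 4 of 5 Fanconi genes, 3 of 4 checkpoint kinase genes and 3 of 6 classical end-joining genes. The CCAAT box, searched as CCAAT on either strand, was in 17 of 32 windows (53.1%) against 37.9% of all, and the CHR element, TTTGAA or TTCGAA, was in 3 of 32 (9.38%) against 19.4%. An A before TTGGCGC also makes a CCAAT box on the other strand, so these searches can share bases. The windows below show the first gene of each role with a core before its start and the other end-joining genes with one. Each is printed 5′ to 3′ on the strand of the gene with the core in capitals.
Brca2, recombination, chr5:150522428-150522484, plus strand: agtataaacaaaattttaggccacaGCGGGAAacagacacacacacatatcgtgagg
Blm, resection, chr7:80535109-80535165, minus strand: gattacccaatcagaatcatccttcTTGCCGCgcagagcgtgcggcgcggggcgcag
Fancb, Fanconi anaemia, chrX:164980395-164980451, plus strand: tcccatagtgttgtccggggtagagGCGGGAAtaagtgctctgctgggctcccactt
Chek2, checkpoint kinase, chr5:110839806-110839862, plus strand: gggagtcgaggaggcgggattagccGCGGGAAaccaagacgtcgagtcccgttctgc
Mdc1, break-site chromatin, chr17:35841344-35841400, plus strand: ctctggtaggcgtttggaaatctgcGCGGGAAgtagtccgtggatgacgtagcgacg
Xrcc4, end joining, chr13:90089677-90089733, minus strand: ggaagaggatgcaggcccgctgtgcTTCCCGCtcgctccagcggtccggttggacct
Xrcc6, end joining, chr15:82016298-82016354, plus strand: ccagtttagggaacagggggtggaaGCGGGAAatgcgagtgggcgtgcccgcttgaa
Lig4, end joining, chr8:9977730-9977786, minus strand: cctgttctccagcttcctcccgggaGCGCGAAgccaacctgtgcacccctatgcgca

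The cores printed lie between 46 bases (Xrcc6) and 172 bases (Fancb) before the start. A match to these letters is a description of the sequence and does not show a bound factor. End-joining genes carried the core as well as recombination genes did, and Xrcc4, whose RNA level in TAI differed least from control of all 43 genes, has one 100 bases before its start. The median log2 fold change in TAI against control, taken from recovered reads, was −0.92 for the 18 genes with a core and −0.72 for the 14 without.

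Expression was measured as FPKM, fragments per kilobase of exon scaled to the total of each library. The read counts behind the values were recovered and summed to 16284535 to 18244740 reads per mouse. Epithelial markers were high in every mouse, but the tissue was not epithelium alone: the 9 fibroblast and smooth muscle markers summed to between 99.4 and 594 FPKM and were lowest in TAI/IVIg 3. The summed level of 8 lymphocyte markers was 60.5, 9.63 and 408 FPKM in control 1 to 3, 4.91, 7.09 and 76.4 FPKM in the TAI mice and 4.21, 80.2 and 5.53 FPKM in the TAI/IVIg mice, with no marker at 0 in any mouse. The highest mouse of each group was thus control 3, TAI 3 and TAI/IVIg 2. The 12 proliferation markers summed to 66.5, 161 and 154 FPKM in controls, 25.5, 34.3 and 28.9 FPKM after TAI and 19.7, 32.8 and 19.3 FPKM after TAI/IVIg. All 12 passed the test as lower in both irradiated groups, against 26.1% of all genes tested in TAI and 37.4% in TAI/IVIg. Of the 12, 3 had passed the filter on low values through the control mice alone. In bulk tissue, fewer cells that express a gene and less RNA per cell cannot be told apart.

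**Figure D1:**
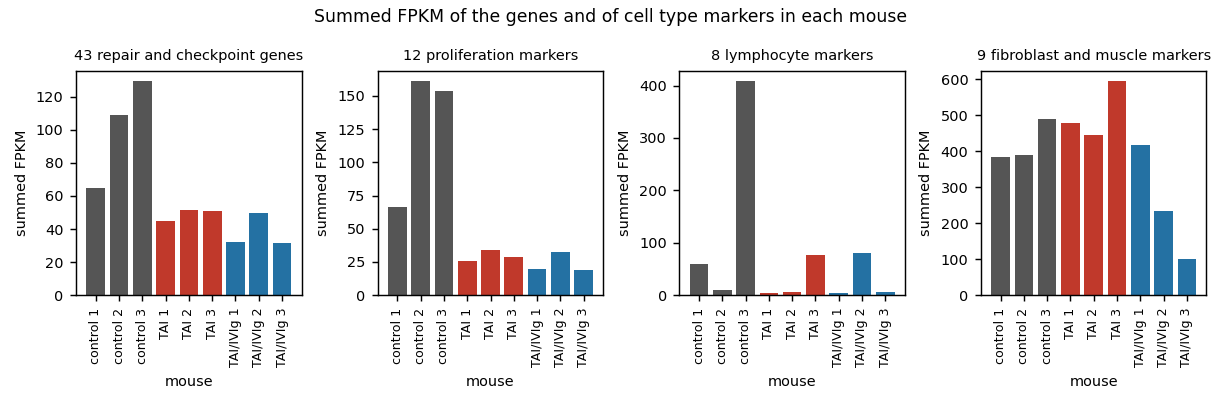
Summed FPKM (vertical axes, starting at 0) in each of the 9 mice for the 43 repair and checkpoint genes and for 3 sets of cell type markers. The repair genes and the proliferation markers are lower in all 6 irradiated mice than in any control, whereas the lymphocyte markers are high in control 3, TAI 3 and TAI/IVIg 2.

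Summed over the 43 genes, the level was 64.8, 109 and 129 FPKM in the control mice, 44.7, 51.2 and 51.0 FPKM in the TAI mice and 32.3, 49.8 and 31.7 FPKM in the TAI/IVIg mice. Every irradiated mouse lay below every control. The controls themselves spread widely: control 1 was the lowest control for 40 of the 43 genes, against 51.6% of 16117 genes with at least 10 reads on average, and control 3 was the highest for 31, against 50.5%. Among irradiated mice given IVIg, TAI/IVIg 2 was the highest for 34 of 43 genes, against 55.5%. Control 1 was also the control with the lowest proliferation markers, control 3 the mouse with the most lymphocyte RNA and TAI/IVIg 2 the highest of its group in both, and the part of proliferating cells and lymphocytes in the results below was not tested.

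The first comparison asked which of these genes differed after irradiation. Of the 43 genes, 42 had a lower mean in TAI than in control mice, against 63.8% of all 16117 genes. The median gene stood at 52.7% of its control mean, against 83.1% for all. In 22 of the 43 genes (51.2%) every TAI mouse was below every control, against 33.9% of all genes, and in none was every TAI mouse above, against 15.7%. In limma on log2(FPKM + 1), 22 genes reached the minimum of 1 FPKM in 3 mice and 3 of them, H2afx, Rif1 and Lig4, passed an adjusted p of 0.05 as lower, or 13.6% of the genes tested, against 26.1% of the 13056 genes tested. None of the 22 passed as higher, against 8.81%.

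The other 21 genes lay under that minimum, with control means of 0.308 to 1.34 FPKM and 0 to 482 reads per mouse, and were tested from the recovered reads with limma voom, which gave 11 of all 43 genes as lower (25.6%), against 20.7% of 16117 genes, and none as higher, against 7.77%. These were Rad54l, Exo1, Blm, Fancb, Fancd2, Fanci, Brip1, Chek1, Polq, H2afx and Rif1, of which H2afx and Rif1 were called in both tests. The minimum for limma voom, 10 reads, was a mean over all 9 mice. In Exo1, Fancb, Fancd2, Fanci and Polq the irradiated mice alone averaged fewer, so these genes reached it through the control mice. Of the 9 genes tested from reads alone, Rad54l, Fancd2 and Polq passed under all 12 settings of that test, Fancb under 11, Exo1 under 8, Blm and Brip1 under 7, Fanci under 6 of the 11 in which it was tested and Chek1 under 3. The count of 3 depended on single mice. It was 11 without control 1, 1 without control 2, control 3 or any 1 of the TAI mice, and 5 without TAI/IVIg 2. The count of 11 was likewise 24 without control 1, 5 without control 2, control 3 or TAI 3, 4 without TAI 1 and 7 without TAI 2. Mice sharing a number deviated together between control and TAI, and with the replicate number as a block the count of 3 was 6 over the 9 mice and 8 over the 6 mice compared. The share of all genes called was not taken under these settings. Whether the shifts in these counts were particular to the 43 genes was thus not tested.

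**Figure D2:**
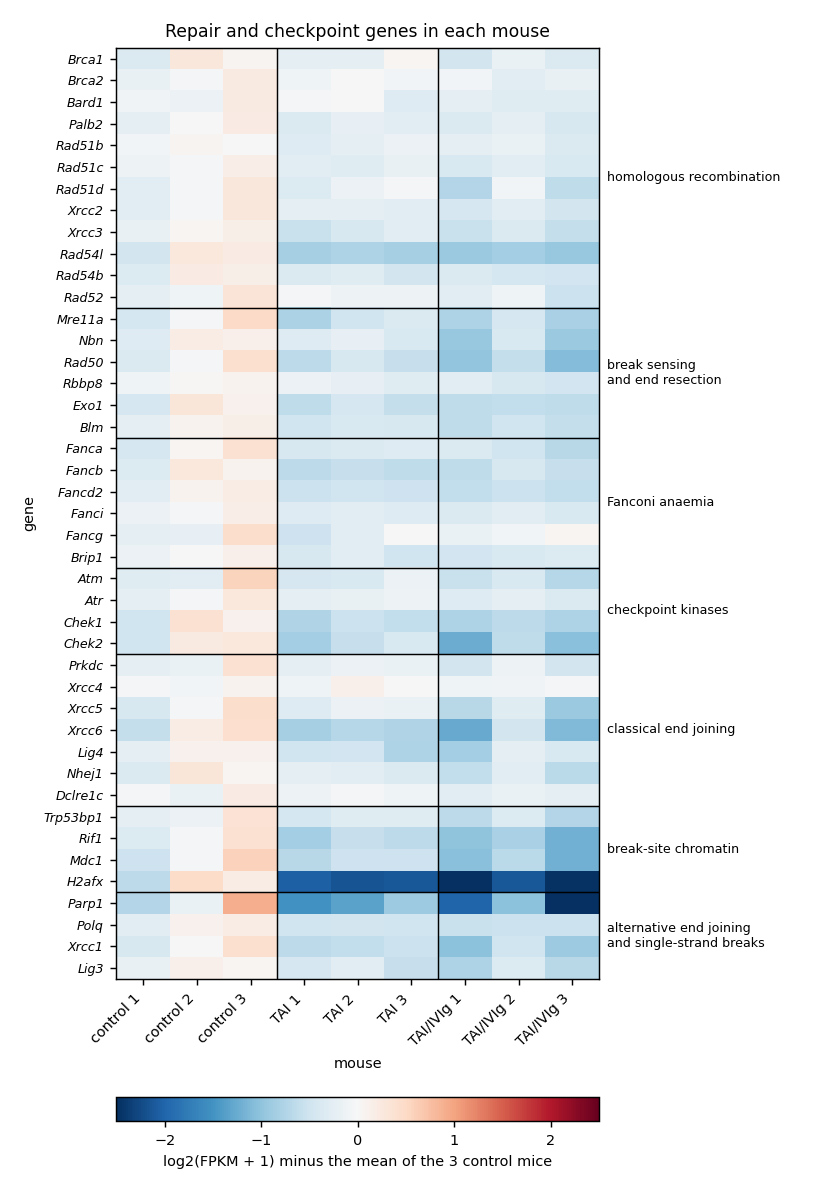
Each row is 1 gene, grouped by role, and each column 1 mouse, with colour giving log2(FPKM + 1) minus the mean of the 3 control mice (blue below, red above). H2afx and Parp1 are the darkest rows in the irradiated mice, Xrcc4 stays close to 0 throughout, and control 1 is pale blue in most rows.

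On the log2(FPKM + 1) scale the largest difference was that of H2afx, a gene of break-site chromatin, whereas by share of the control mean 6 genes, Rad54l, Exo1, Polq, Fancb, Fancd2 and Fanci, were lower in TAI than its 18.8%. H2afx encodes H2AX, the histone variant that is phosphorylated around a break (chromosome 9, 44334694 to 44336077 on GRCm38). Its level was 14.3, 32.1 and 26.4 FPKM in the control mice, 4.85, 4.35 and 4.52 FPKM in the TAI mice and 3.01, 4.51 and 3.32 FPKM in the TAI/IVIg mice. Every irradiated mouse lay below the lowest control, and the irradiated groups overlapped each other. The log2 fold change was −2.11 ± 0.26 (SE) in TAI (limma, adjusted p = 0.0011) and −2.39 ± 0.26 in TAI/IVIg (adjusted p = 0.000428), and both passed under all alternatives run, with the adjusted p in TAI at 0.000683 to 0.00747. Rif1, which shields broken ends from resection, had 1.54, 2.09 and 3.18 FPKM in controls, 0.772, 1.13 and 1.04 FPKM after TAI and 0.593, 0.835 and 0.392 FPKM after TAI/IVIg. Neither irradiated group overlapped the controls. Its log2 fold change was −0.69 ± 0.20 (adjusted p = 0.0286) in TAI, where the adjusted p ranged from 0.0143 to 0.106 over the alternatives and the call was lost without control 2, control 3 or any 1 of the TAI mice, and −1.003 ± 0.20 (adjusted p = 0.00462) in TAI/IVIg.

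Mdc1, the scaffold that binds phosphorylated H2AX, and Trp53bp1, which works with Rif1 on end protection, had lower means in both irradiated groups. Mdc1 stood at 52.7% of its control mean in TAI (adjusted p = 0.119) and 33.1% in TAI/IVIg (adjusted p = 0.0156). Trp53bp1, tested from recovered reads, stood at 59.97% in TAI (adjusted p = 0.151) and 41.2% in TAI/IVIg (adjusted p = 0.0164, lost without TAI/IVIg 1 or TAI/IVIg 3). For both genes the highest level was in control 3, at 4.97 FPKM for Mdc1 and 1.97 FPKM for Trp53bp1.

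Of the 12 genes of homologous recombination, 1 passed as lower in TAI from the recovered reads, Rad54l (8.33%, against 20.7% of all genes), and none of the 4 tested on FPKM did, against 26.1%. Rad54l, a motor protein that assists strand exchange, had 0.441, 1.39 and 1.3 FPKM in controls, 0.114, 0.159 and 0.121 FPKM after TAI and 0.0433, 0.107 and 0.0387 FPKM after TAI/IVIg. It was at 12.6% of its control mean in TAI (voom log2 fold change −2.80, adjusted p = 0.00616) and 6.05% in TAI/IVIg (−3.95, adjusted p = 0.00156), and it passed as lower in TAI under all 12 settings of that test. The levels rested on 15 to 20 reads per mouse in TAI and 5 to 14 in TAI/IVIg, against 59 to 189 in controls. Its paralogue Rad54b had 12 to 65 reads in controls and 4 to 15 in TAI, overlapped between these groups and did not pass in TAI (voom adjusted p = 0.0929). With 2 to 12 reads in TAI/IVIg it was at 14.0% of control, each of these mice lying below every control in FPKM. It passed as lower there (voom adjusted p = 0.0314), under 7 of 12 settings.

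Other recombination genes were closer to control. Brca1, which promotes resection, had 0.614, 1.5 and 1.18 FPKM in controls, 0.766, 0.748 and 1.13 FPKM after TAI and 0.508, 0.848 and 0.615 FPKM after TAI/IVIg, so all groups overlapped. It stood at 80.4% of control in TAI (log2 fold change −0.14 ± 0.19, adjusted p = 0.593) and 59.9% in TAI/IVIg (−0.32 ± 0.19, adjusted p = 0.188). Its partner Bard1 was at 85.1% and 64.7%, and Brca2, which acts after resection, was at 81.2% and 54.4%. None of the 3 passed in either comparison. Rad52, an annealing protein, had 0.860, 1.01 and 1.73 FPKM in controls, 1.11, 0.982 and 0.991 FPKM after TAI and 0.773, 1.02 and 0.498 FPKM after TAI/IVIg, and did not pass either (adjusted p = 0.695 and 0.188). With library medians set equal, the values in TAI were above 0 for Brca1 (0.15) and Rad52 (0.19).

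The products of Xrcc3, Rad51d, Rad51b, Rad51c and Xrcc2 act together in recombination. Xrcc3 had 3.39, 4.12 and 4.47 FPKM in controls, 2.38, 2.79 and 3.09 FPKM after TAI and 2.37, 2.85 and 2.30 FPKM after TAI/IVIg. Every irradiated mouse was below every control, with a log2 fold change of −0.41 ± 0.14 (adjusted p = 0.0528) in TAI and −0.51 ± 0.14 (adjusted p = 0.0188) in TAI/IVIg. Rad51d had 2.40, 3.02 and 4.00 FPKM in controls, 2.22, 2.70 and 2.94 FPKM after TAI and 1.47, 2.90 and 1.62 FPKM after TAI/IVIg, and the groups overlapped (adjusted p = 0.531 and 0.0952). Rad51b, Rad51c and Xrcc2 were at 39.9%, 38.0% and 48.3% of control in TAI. Palb2, the bridge between the Brca proteins, was at 35.1%. These 4 genes had from 2 to 76 reads per mouse, did not pass in TAI and passed as lower in TAI/IVIg from recovered reads, with adjusted p from 0.00726 to 0.0345. The call held under all 12 settings for Rad51c, 9 for Xrcc2, 8 for Palb2 and 5 for Rad51b. It was lost for Xrcc2, Palb2 and Rad51b without control 3, TAI/IVIg 1 or TAI/IVIg 3, for Palb2 and Rad51b without control 2 and for Rad51b without TAI 2.

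Of the 6 genes of break sensing and resection, Exo1 and Blm passed as lower in TAI from recovered reads (33.3%, against 20.7% of all genes). All 6 did in TAI/IVIg, against 34.2%. Exo1, counted in both shares, had reached the read minimum of that test through the control mice. The Mre11a, Rad50 and Nbn proteins form the complex that binds ends first. Mre11a had 1.68, 2.54 and 4.02 FPKM in controls, 1.10, 1.56 and 1.81 FPKM after TAI and 1.13, 1.70 and 1.08 FPKM after TAI/IVIg. Rad50 had 2.36, 3.2 and 4.64 FPKM in controls, 1.73, 2.24 and 1.90 FPKM after TAI and 1.17, 1.85 and 1.03 FPKM after TAI/IVIg. Rad50, but not Mre11a, was free of overlap with the controls in both irradiated groups. In TAI neither passed, at log2 fold changes of −0.55 ± 0.24 (adjusted p = 0.102) for Mre11a and −0.55 ± 0.21 (adjusted p = 0.0757) for Rad50. In TAI/IVIg both passed, at −0.67 ± 0.24 (adjusted p = 0.0457) and −0.89 ± 0.21 (adjusted p = 0.00962).

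Exo1, the exonuclease of long-range resection, showed the lowest share of control in TAI/IVIg of all 43 genes. It had 28, 144 and 102 reads in controls, 3, 25 and 8 after TAI and 3, 4 and 2 after TAI/IVIg. That was 13.7% of the control mean in TAI (voom log2 fold change −3.03, adjusted p = 0.0208) and 3.33% in TAI/IVIg (−4.45, adjusted p = 0.00531). The helicase gene Blm was at 29.2% and 10.3% (adjusted p = 0.0267 and 0.00203). Rbbp8, whose product starts resection with the Mre11a nuclease, was at 78.1% (adjusted p = 0.216) and 63.8% (adjusted p = 0.0373), and its fold changes turned positive with library medians set equal, at 0.07 and 0.11.

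Of the 6 Fanconi genes, 4 passed as lower in TAI from recovered reads (66.7%, against 20.7% of all genes), among them both subunits of the clamp that is loaded on damaged DNA. Of these 4, Fancb, Fancd2 and Fanci had reached the minimum of 10 reads through the control mice. Fancd2, of this clamp, had 0.290, 0.670 and 0.779 FPKM in controls, 0.0809, 0.101 and 0.0898 FPKM after TAI and 0.0210, 0.0742 and 0.0150 FPKM after TAI/IVIg. Each group lay below the one before it without overlap, on 11, 13 and 13 reads after TAI and 3, 10 and 2 after TAI/IVIg. The step from TAI to TAI/IVIg did not pass (voom adjusted p = 0.317), and 18.9% of all genes were likewise lower there without overlap. Fancd2 was at 15.6% of control in TAI (voom log2 fold change −2.52, adjusted p = 0.00785, passing under all 12 settings) and 6.34% in TAI/IVIg (−4.03, adjusted p = 0.00138). Its partner Fanci, with 18 to 47 reads in controls, had 4 to 7 after TAI and 1, 7 and 0 after TAI/IVIg. Fancb, of the core complex, was at 14.5% and 24.4% of control (adjusted p = 0.0104 and 0.0162), and the helicase gene Brip1 at 52.0% and 51.7% (adjusted p = 0.0251 and 0.0183). In TAI/IVIg the call of Fancb was lost without TAI/IVIg 1 or TAI/IVIg 3 and that of Brip1 without control 3 or TAI/IVIg 1.

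Fancg, also of the core complex, had 1.77, 1.85 and 3.46 FPKM in controls, 1.28, 1.70 and 2.27 FPKM after TAI and 1.91, 2.11 and 2.40 FPKM after TAI/IVIg. All 3 groups overlapped, and the log2 fold change was −0.27 ± 0.21 in TAI (adjusted p = 0.35) and −0.07 ± 0.21 in TAI/IVIg (adjusted p = 0.814), where it was 0.16 without control 3 and 0.43 with library medians set equal. Fanca did not pass in TAI, at 52.1% of control (adjusted p = 0.231), and passed as lower in TAI/IVIg, at 37.8% (adjusted p = 0.0495), but under only 2 of 12 settings, the call being lost when any mouse but control 1 was left out.

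The checkpoint kinases were at 31.5% to 57.9% of control in TAI and at 23.8% to 32.4% in TAI/IVIg. Atm, which answers breaks, had 0.451, 0.487 and 1.60 FPKM in controls, 0.322, 0.356 and 0.610 FPKM after TAI and 0.204, 0.370 and 0.0808 FPKM after TAI/IVIg. Atr, which answers stalled forks and single strands, had 0.205, 0.364 and 0.682 FPKM in controls, 0.195, 0.239 and 0.290 FPKM after TAI and 0.12, 0.199 and 0.0858 FPKM after TAI/IVIg. Both were highest in control 3 and lowest in TAI/IVIg 3. Neither passed in TAI (voom adjusted p = 0.345 for Atm and 0.309 for Atr), and both passed as lower in TAI/IVIg (adjusted p = 0.036 and 0.0283). The call of Atm held under 5 of 12 settings and was lost without control 3, TAI 1, TAI 2, TAI/IVIg 1 or TAI/IVIg 3, and that of Atr held under 7 and was lost without control 2, control 3, TAI/IVIg 1 or TAI/IVIg 3.

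Chek1, the effector that acts under Atr, had 0.509, 1.81 and 1.32 FPKM in controls, 0.277, 0.477 and 0.390 FPKM after TAI and 0.252, 0.356 and 0.257 FPKM after TAI/IVIg. Every irradiated mouse was below the lowest control, and it passed as lower in both groups (voom adjusted p = 0.0425 and 0.0145), though in TAI under only 3 of 12 settings. Chek2, which acts under Atm, had 1.55, 3.24 and 3.35 FPKM in controls, 1.01, 1.41 and 1.77 FPKM after TAI and 0.537, 1.31 and 0.755 FPKM after TAI/IVIg. TAI 3 overlapped control 1, and the log2 fold change was −0.60 ± 0.25 in TAI (adjusted p = 0.0895) and −0.97 ± 0.25 in TAI/IVIg (adjusted p = 0.0127).

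Classical end joining ranged from Xrcc6, at 44.2% of control in TAI, to Xrcc4, at 101%. The Ku heterodimer binds the ends. Xrcc6, its smaller subunit, had 1.89, 3.93 and 4.84 FPKM in controls, 1.45, 1.66 and 1.60 FPKM after TAI and 0.832, 2.18 and 1.04 FPKM after TAI/IVIg. Every TAI mouse was below every control, but TAI/IVIg 2 overlapped. Its log2 fold change was −0.77 ± 0.29 in TAI (adjusted p = 0.0649) and −0.94 ± 0.29 in TAI/IVIg (adjusted p = 0.0255). Xrcc5, the larger subunit, had 2.51, 3.55 and 5.28 FPKM in controls, 2.70, 3.2 and 3.12 FPKM after TAI and 1.88, 2.75 and 1.45 FPKM after TAI/IVIg. It stood at 79.6% in TAI (adjusted p = 0.492) and 53.6% in TAI/IVIg (adjusted p = 0.0481), the latter call being lost without any 1 of control 2, control 3, the TAI mice, TAI/IVIg 1 and TAI/IVIg 3.

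The ligation step held both a called and an even gene. Lig4, the ligase of end joining (chromosome 8, 9969049 to 9977686 on GRCm38), had 1.93, 2.68 and 2.67 FPKM in controls, 1.40, 1.45 and 0.99 FPKM after TAI and 0.877, 1.87 and 1.61 FPKM after TAI/IVIg. Both irradiated groups lay below the controls without overlap. Its log2 fold change was −0.58 ± 0.19 in TAI (adjusted p = 0.0442, from 0.0218 to 0.194 over the alternatives) and −0.50 ± 0.19 in TAI/IVIg (adjusted p = 0.0616), and the call in TAI was lost when any 1 of control 2, control 3, the TAI mice or TAI/IVIg 3 was left out. Xrcc4, the scaffold that holds Lig4, had 1.61, 1.55 and 1.84 FPKM in controls, 1.48, 1.92 and 1.65 FPKM after TAI and 1.48, 1.51 and 1.57 FPKM after TAI/IVIg. Its log2 fold change was 0.01 ± 0.13 in TAI (adjusted p = 0.957) and −0.08 ± 0.13 in TAI/IVIg (adjusted p = 0.617), where it became 0.41 and passed as higher with library medians set equal (adjusted p = 0.0314).

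Nhej1, a filament partner of Xrcc4, had 2.07, 3.89 and 3.1 FPKM in controls, 2.36, 2.25 and 2.07 FPKM after TAI and 1.58, 2.30 and 1.47 FPKM after TAI/IVIg, with overlap in both comparisons (adjusted p = 0.264 and 0.0544). The nuclease gene Dclre1c was at 88.1% and 73.7% of control (adjusted p = 0.634 and 0.22). Prkdc, the catalytic subunit of the DNA-dependent kinase, was at 67.5% and 46.2% and did not pass from recovered reads (adjusted p = 0.469 and 0.0731), its highest level, 1.19 FPKM, being in control 3.

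**Figure D3:**
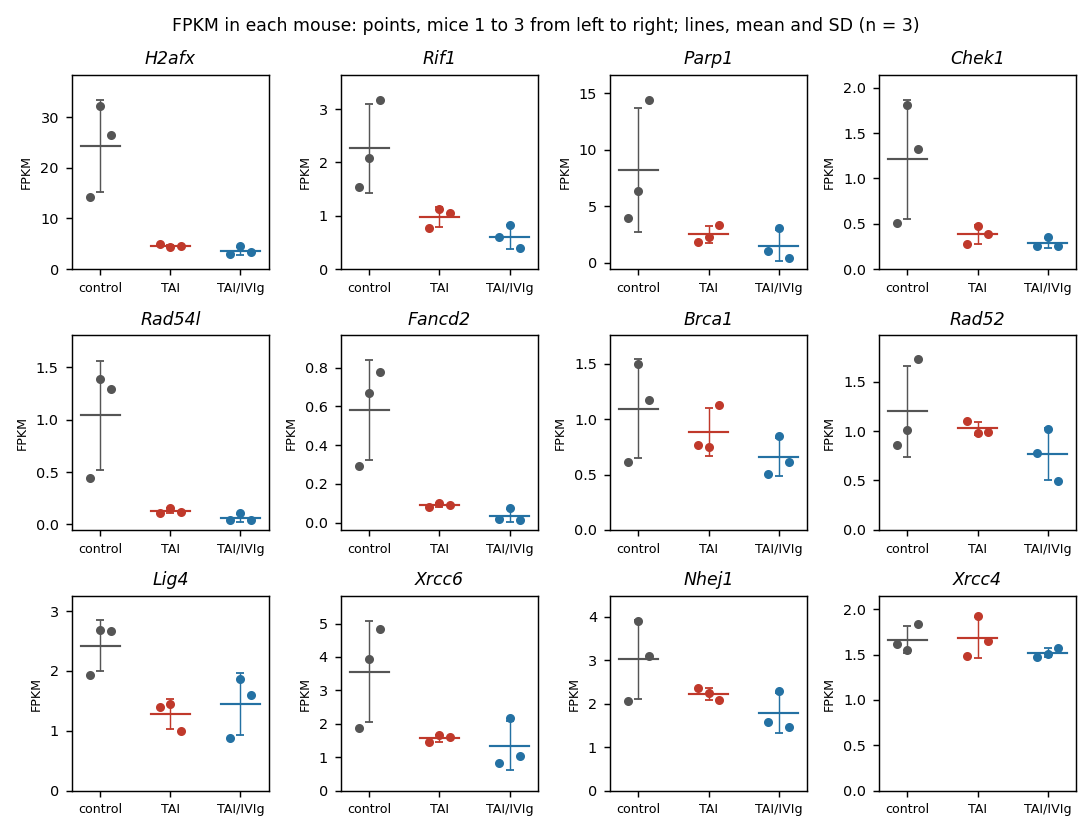
FPKM in each mouse for 12 of the genes, with mice 1 to 3 from left to right in each group, a horizontal line at the mean and a bar of 1 SD (n = 3). H2afx, Rad54l and Fancd2 show TAI and TAI/IVIg mice well below all controls, whereas Brca1, Rad52 and Xrcc4 show overlapping groups.

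Of the genes of alternative end joining and single-strand breaks, all 4 had every irradiated mouse below every control in both groups, against 33.9% of all genes in TAI and 42.1% in TAI/IVIg. Parp1, the sensor of nicked DNA, had 3.99, 6.33 and 14.4 FPKM in controls, 1.89, 2.27 and 3.38 FPKM after TAI and 1.07, 3.06 and 0.451 FPKM after TAI/IVIg. Its highest level was in control 3, the mouse with the most lymphocyte RNA. The log2 fold change of Parp1 was −1.26 ± 0.46 in TAI (adjusted p = 0.0615) and −1.84 ± 0.46 in TAI/IVIg (adjusted p = 0.0113). Polq was at 14.2% of control in TAI, from 39 to 119 reads in controls and 11 to 15 after TAI. It passed there under all 12 settings (voom log2 fold change −2.64, adjusted p = 0.00618). In TAI/IVIg it was at 6.91% (voom adjusted p = 0.00156). Polq had reached the read minimum of that test through the control mice.

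Xrcc1, the scaffold of single-strand break repair, had 2.11, 3.06 and 4.39 FPKM in controls, 1.59, 1.66 and 1.82 FPKM after TAI and 1.00, 1.91 and 1.17 FPKM after TAI/IVIg. Its log2 fold change was −0.60 ± 0.22 in TAI (adjusted p = 0.0611) and −0.81 ± 0.22 in TAI/IVIg (adjusted p = 0.016). Lig3, the ligase bound to Xrcc1, was at 63.4% and 51.1% of control (adjusted p = 0.0808 and 0.0179).

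The level per length separates these genes further. In control mice H2afx was highest (24.3 ± 9.12 FPKM, SD, n = 3), followed by Parp1 (8.25 ± 5.48), Nbn (5.17 ± 1.12) and Xrcc3 (3.99 ± 0.552). This order held within each of the 3 control mice. Between mice the ranges of neighbours in the order overlapped, H2afx in control 1 being at 14.3 FPKM and Parp1 in control 3 at 14.4 FPKM. After TAI the order was H2afx (4.57 ± 0.255), Nbn (3.94 ± 0.308), Xrcc5 (3.01 ± 0.269) and Xrcc3 (2.75 ± 0.358), with Parp1 at 2.51 ± 0.773. The genes at the bottom in TAI were Fanci, Polq, Exo1 and Fancd2, each under 0.1 FPKM on average.

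Recombination was then set against classical end joining. From recovered reads, 1 of 12 recombination genes and 0 of 7 end-joining genes passed as lower in TAI, against 20.7% of all genes, and 7 of 12 (58.3%) and 1 of 7 (14.3%) did so in TAI/IVIg, against 34.2%. Of the 7 recombination genes called in TAI/IVIg, Rad51b, Rad51c and Rad54b had reached the minimum of 10 reads through the control mice. The median log2 fold change in TAI was −0.69 for recombination and −0.39 for end joining, beside −0.25 for all 16117 genes. In TAI/IVIg it was −1.28 and −0.80, beside −0.57. In the genes tested on FPKM the order was the other way round, with −0.16 for 4 recombination genes and −0.25 for 6 end-joining genes in TAI, beside −0.23 for all 13056, and −0.40 and −0.51 in TAI/IVIg, beside −0.39. With library medians set equal these became 0.13, 0.03 and 0.05 in TAI and 0.09, −0.02 and 0.10 in TAI/IVIg. The recombination genes with the smallest share of control, Rad54l, Rad54b, Palb2 and Rad51c, were all under the FPKM minimum.

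The difference was also taken within each library. The mean log2(FPKM + 1) of the 12 recombination genes minus that of the 7 end-joining genes was −0.65, −0.67 and −0.73 in control mice, −0.66, −0.69 and −0.60 in TAI mice and −0.50, −0.74 and −0.61 in TAI/IVIg mice. The groups overlapped, with means of −0.69 ± 0.04, −0.65 ± 0.05 and −0.62 ± 0.12 (SD, n = 3). A pseudocount of 0.1, which gives low genes more weight, turned the order: the difference was −1.41, −1.14 and −1.19 in control, −1.58, −1.53 and −1.45 in TAI and −1.37, −1.74 and −1.74 in TAI/IVIg mice. On that scale every TAI mouse was below every control, and TAI/IVIg 1 overlapped them. The order of the groups thus depended on the pseudocount, and no test was made of a score over the genes.

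**Figure D4:**
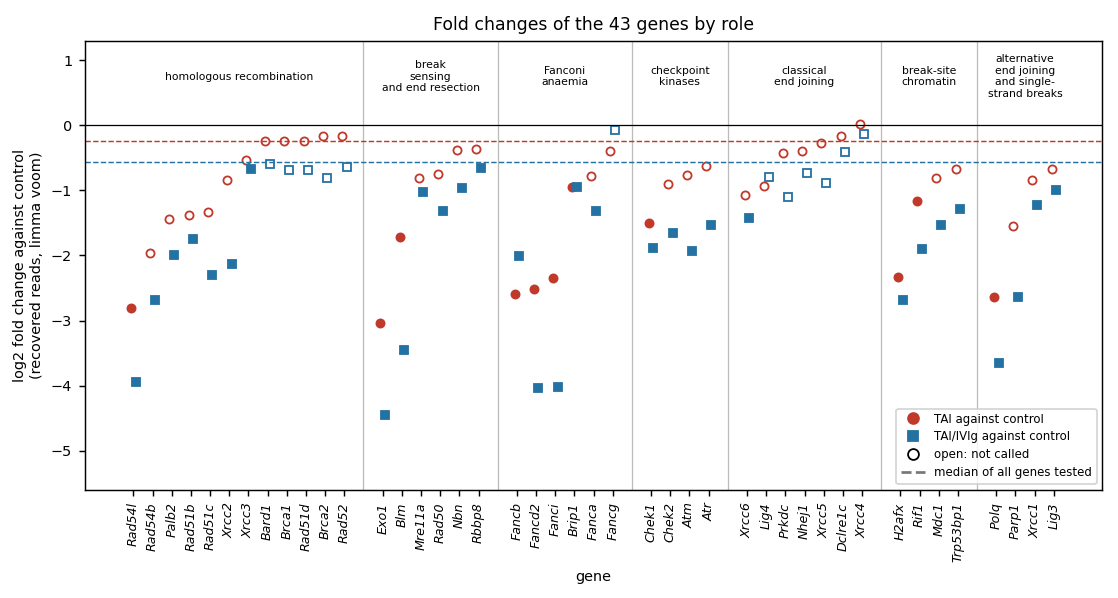
Log2 fold change against control from the recovered reads (vertical axis) for each of the 43 genes, ordered within its role, in TAI (red circles) and TAI/IVIg (blue squares). Filled symbols passed an adjusted p of 0.05 and dashed lines mark the median of all genes tested, −0.25 and −0.57; recombination genes span −2.80 to −0.16 in TAI and end-joining genes −1.07 to 0.01.

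**Figure D5:**
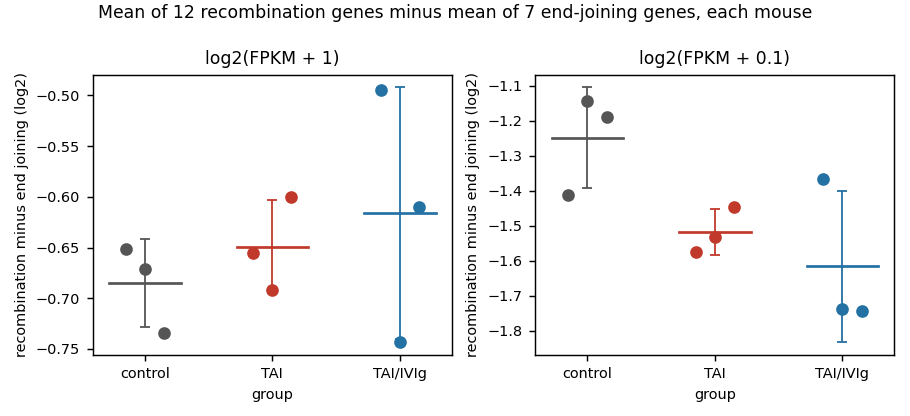
Mean of the 12 recombination genes minus mean of the 7 end-joining genes in each mouse (points), with the group mean and 1 SD, on log2(FPKM + 1) at left and log2(FPKM + 0.1) at right; the vertical axes do not start at 0. The 3 groups overlap at left, whereas at right the TAI mice, at −1.58 to −1.45, lie below the controls, at −1.41 to −1.14.

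The second comparison set TAI/IVIg against the same 3 control mice, so its values are not independent of those in TAI. All 43 genes had a lower mean than control, against 76.4% of all genes, with a median of 38.0% of the control mean, against 69.1%. In 31 genes (72.1%) every TAI/IVIg mouse was below every control, against 42.1% of all, and in none above, against 10.2%. In limma on FPKM 14 of 22 genes passed as lower (63.6%), against 37.4% of all genes tested, and none as higher, against 9.06%. From recovered reads 31 of 43 passed as lower, against 34.2%, and none as higher, against 7.72%, and 13 genes were called by both.

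Every resection, checkpoint kinase, break-site chromatin and alternative end-joining gene was among these 31, as were 5 of 6 Fanconi genes. Of the 31, Exo1, Fancb, Fancd2, Fanci, Polq, Rad51b, Rad51c and Rad54b had reached the minimum of 10 reads through the control mice. The 12 that did not pass were Brca1, Brca2, Bard1, Rad51d, Rad52, Fancg, Prkdc, Xrcc4, Xrcc5, Lig4, Nhej1 and Dclre1c. The count of 14 was 7 without control 2 or control 3, 9 without TAI/IVIg 1, 5 without TAI/IVIg 3 and 4 with library medians set equal, when 1 gene, Xrcc4, passed as higher. Among the 14, H2afx, Rif1, Chek2, Parp1 and Rad50 passed whichever mouse was left out. Without TAI/IVIg 3 the calls of the other 9 were lost, without control 2 those of Nbn, Lig3, Mre11a, Rbbp8, Xrcc3, Xrcc5 and Xrcc6, without control 3 those of Lig3, Mre11a, Rbbp8, Xrcc1, Xrcc3, Xrcc5 and Xrcc6, and without TAI/IVIg 1 those of Lig3, Mre11a, Xrcc1, Xrcc5 and Xrcc6. The calls of Mre11a, Rbbp8 and Xrcc5 were also lost without any 1 of the TAI mice, and that of Rbbp8 without TAI/IVIg 2. The count of 31 was 17 without control 3 and 16 without TAI/IVIg 1 or TAI/IVIg 3. For these altered counts, too, the share of all genes called was not taken.

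The third comparison, TAI/IVIg against TAI, asked whether IVIg was followed by a different level in irradiated mice. None of the 22 genes tested on FPKM and none of the 43 tested from recovered reads passed an adjusted p of 0.05 in limma, and neither did any of the 13056 or 16117 genes tested (0% in either direction). At an unadjusted p under 0.05, 1 of 22 genes was lower, against 11.2% of all, and none was higher, against 1.64%. The mean was lower with IVIg for 40 of 43 genes, against 72.7% of all genes, and the median gene stood at 71.2% of its TAI mean, against 84.8%. In the same comparison all 9 fibroblast and smooth muscle markers were lower at an unadjusted p under 0.05 (median log2 fold change −0.96, and −1.11 from recovered reads). All 12 proliferation markers had values below 0 (median −0.33, and −1.25 from recovered reads), with 0 of them at an unadjusted p under 0.05. Of the epithelial markers, 8 of 10 had values above 0 (median 0.12). None of these markers passed after adjustment. Their part in the values of the repair genes was not tested. In 6 genes (14%), Xrcc2, Rad54l, Blm, Fancd2, Dclre1c and Polq, every TAI/IVIg mouse was below every TAI mouse, against 18.9% of all, and in none above, against 2.61%.

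The gene at an unadjusted p under 0.05 was Nbn, the regulatory subunit of the end-binding complex. It had 3.89, 5.92 and 5.70 FPKM in controls, 3.89, 4.27 and 3.66 FPKM after TAI and 2.17, 3.67 and 2.19 FPKM after TAI/IVIg, and TAI/IVIg 2 overlapped the TAI mice. The log2 fold change between the irradiated groups was −0.45 ± 0.20 (limma, adjusted p = 0.388). Xrcc5 followed at −0.43 ± 0.23 (adjusted p = 0.441). Fancg (0.21 ± 0.21, adjusted p = 0.674) and Lig4 (0.09 ± 0.19, adjusted p = 0.855) were the only genes tested on FPKM with a value above 0, and Lig4 turned to −0.01 without TAI 3 and −0.04 without TAI/IVIg 2. From recovered reads Fancb (0.59) and Brip1 (0.01) were above 0 as well.

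Other genes of the same pathways, which are not among the 43, were read in the same fit. Of 30 further recombination and Fanconi genes, 21 were tested, and 11 passed as lower in TAI, against 26.1% of all genes tested, and 14 in TAI/IVIg, against 37.4%, with none higher, against 8.81% and 9.06%, and 3 of the 21 (Fancl and Helq among them) had passed the filter through the control mice alone. Their median log2 fold change was −0.54 in TAI and −0.61 in TAI/IVIg. Rpa3, a subunit of the protein that coats single strands, had 9.17, 17.2 and 17.1 FPKM in controls and 3.95 to 4.25 FPKM in TAI mice (−1.57 ± 0.27, adjusted p = 0.00373), and Zswim7, a recombination factor, 11.7, 14.7 and 12.2 FPKM and 3.35 to 6.44 FPKM (−1.34 ± 0.25, adjusted p = 0.00524). Slx4, a nuclease scaffold, was the only one above 0 in TAI (0.08 ± 0.13, adjusted p = 0.645).

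Of 17 further end-joining genes, 16 were in the table and 13 were tested. Poll, a gap-filling polymerase, passed as lower in TAI (−0.475 ± 0.16, adjusted p = 0.0495, lost under 16 alternatives, 1 of 13 genes against 26.1% of all). In TAI/IVIg Poll, Parp2 and Aplf passed as lower, 3 of 13 genes against 37.4% of all. Aplf had passed the filter through the control mice alone. The medians of the list were −0.13 in TAI and −0.30 in TAI/IVIg. Cyren (0.58 ± 0.23, adjusted p = 0.0784) and Parp3 (0.42 ± 0.32, adjusted p = 0.326) had the highest values in TAI without passing. Of 13 further checkpoint genes, 10 were tested, and 3 passed as lower in TAI, against 26.1% of all genes tested, and 7 in TAI/IVIg, against 37.4%, with none higher, at medians of −0.465 and −0.62. These 3 were Tipin, of the fork protection complex (−1.35 ± 0.31, adjusted p = 0.0119), Topbp1, the activator of Atr (−0.90 ± 0.25, adjusted p = 0.0234), and Cdc25a, a phosphatase that drives cells into S phase (−0.83 ± 0.17, adjusted p = 0.00745).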

How the data were processed

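The authors deposited a table of FPKM for 31685 genes in 9 libraries, and no count table was used here. Submitters' notes name FastQC, Trimmomatic, STAR and featureCounts among other tools, with builds mm10 and GRCm38, and no versions are given in the sources used here. Every FPKM was a whole number of reads times a factor of gene and library (31685 genes, 100%, within 0.01 read), and the reads recovered this way gave totals of 16284535 to 18244740. Gene lengths matched the exons of GENCODE M21 for 98.13% of 31146 genes. FPKM divides by each library's own total, so a change in a few abundant genes shifts all others. The counting setting for strand is not given in the sources used here.

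The 13056 genes that reached 1 FPKM in 3 or more mice were tested with limma 3.58.1 in R 4.3.3 on log2(FPKM + 1), a term per group over all 9 mice, empirical Bayes with trend, and Benjamini-Hochberg adjustment over all genes tested; a gene was called at an adjusted p under 0.05. Fold changes on this scale understate the change of low genes. Because 21 of the 43 genes were below the filter, limma voom on the recovered reads (library totals, mean of at least 10 reads, 16117 genes) was added after the data had been seen. Two-sided p-values set a difference in group means against the spread between mice of a group. In the main fits that spread was pooled over all 9 mice, 3 a group, and moderated by empirical Bayes.

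Genes, roles, pathway lists and marker lists were chosen with earlier results of these data known. Values in each mouse are given for the tested genes with the largest change in TAI against control in each role (2, or 4 for recombination and classical end joining), for the 2 smallest p-values in each direction in TAI/IVIg against TAI, and for H2afx, Atm and Atr. Those for Rad54l, Exo1, Fancd2, Fanci, Chek1, Polq and Xrcc4 were chosen after their values were seen. Shares of the control mean use mean FPKM.

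Neither labels nor methods say what a replicate number stands for. Same-numbered control and TAI mice deviated together from their group means (correlations of 0.271, 0.241 and 0.308). TAI/IVIg mice gave −0.296 to 0.201 with their namesakes. Control 3 and TAI/IVIg 2, which differ in number, gave 0.408, so these values do not establish a pairing. The main fits held no pairing, and the replicate number entered as a block only among the alternatives. Coordinates of genes are those of GENCODE M21, and promoter windows are those of RefSeq on GRCm38.p6. Alternatives changed the pseudocount (0.1), the filter (none, or mean FPKM from 2 up), the scaling (library medians set equal), the mice fitted (only the 6 compared), the trend (off) and the block (replicate number), or left out each mouse.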

Additional observations from a re-analysis of the deposited data

How the results depend on the processing

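The number of genes lower in TAI than in control, 3 on FPKM, was 7 with no filter, 1 at a mean FPKM of at least 2, 6 with the replicate block, 8 with the block over the 6 mice compared, 11 by voom, 9 by voom with median-ratio sizes and 1 to 11 with a mouse left out. The 11 of voom were 4 to 24 with a mouse left out. The 14 lower in TAI/IVIg were 8 at a mean FPKM of at least 2, 4 with library medians set equal (with 1 higher), 5 with the block over 6 mice, 31 by voom and 5 to 17 with a mouse left out, and the 31 of voom were 17 with median-ratio sizes and 16 to 36 with a mouse left out. The replicate block moved no other count of calls by over 1.5 times (13 in TAI/IVIg on FPKM, 14 and 28 by voom). The recombination median in TAI, −0.16, was 0.127 with medians set equal, −0.686 and −0.442 by voom with totals and median-ratio sizes, and −0.315 to −0.037 with a mouse left out, and the end-joining median, −0.254, was 0.034 with medians set equal and −0.446 to −0.131 with a mouse left out. In TAI/IVIg against control the recombination median, −0.4, was −0.628 at pseudocount 0.1, 0.091 with medians set equal and −1.28 and −0.773 by voom, and the end-joining median, −0.507, was −0.016 with medians set equal and −0.801 by voom. Against TAI the recombination median, −0.196, was −0.402 at pseudocount 0.1, −0.104 with no filter, 0.007 with medians set equal, −0.513 by voom and −0.289 to −0.132 with a mouse left out, and the end-joining median, −0.148, was 0.055 and −0.345. Recombination minus end joining averaged −1.248, −1.518 and −1.616 in control, TAI and TAI/IVIg at pseudocount 0.1, −0.143, −0.028 and −0.067 over genes that passed the filter, and −0.535 and −0.577 in control and TAI with resection and Fanconi genes added. With medians set equal, log2 fold changes took the other sign at 0.148 (Brca1), 0.106 (Rad51d), 0.188 (Rad52), 0.069 (Rbbp8), 0.017 (Fancg), 0.072 (Xrcc5) and 0.198 (Dclre1c) in TAI and 0.17 (Brca1), 0.012 (Rad51d), 0.182 (Rad52), 0.107 (Rbbp8), 0.426 (Fancg), 0.411 (Xrcc4), 0.275 (Dclre1c) and 0.097 (Parp3) in TAI/IVIg against control. Voom with median-ratio sizes gave 0.006 (Brca1), 0.013 (Rad51d), 0.081 (Rad52), 0.095 (Dclre1c), 0.074 (Brca2) and 0.005 (Bard1) in TAI and 0.409 (Fancg), 0.376 (Xrcc4), 0.087 (Dclre1c) and 0.004 (Parp3) in TAI/IVIg. With a mouse left out the sign also changed in TAI for Rad52 (−0.21 to 0.066, other sign without control 3 at 0.066), Xrcc4 (−0.053 to 0.065, other sign without control 1 at −0.004, control 2 at −0.022, TAI 2 at −0.053), Xrcc5 (−0.418 to 0.003, other sign without control 3 at 0.003), Dclre1c (−0.171 to 0.008, other sign without control 3 at 0.008), Brca2 (−0.561 to 0.248, other sign without control 3 at 0.248), Bard1 (−0.388 to 0.011, other sign without TAI 3 at 0.011) and Prkdc (−0.69 to 0.001, other sign without control 3 at 0.001). It changed in TAI/IVIg against control for Fancg (−0.186 to 0.156, other sign without control 3 at 0.156) and Parp3 (−0.673 to 0.003, other sign without TAI/IVIg 3 at 0.003), and against TAI for Lig4 (−0.039 to 0.266, other sign without TAI 3 at −0.01, TAI/IVIg 2 at −0.039). Among the gene values run through the alternatives, no other changed sign. Against TAI these were only Fancg, Lig4, Nbn and Xrcc5, and of the further pathway genes only those with the largest changes in TAI. The causes were not tested, and the share of all genes called was not taken under the alternatives. A planned quasi-likelihood test of counts was not run, because the deposited unit is FPKM.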
